A study of Homo sapiens with 34 samples.

Results

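Heterogeneous nuclear ribonucleoproteins (hnRNPs) coat nascent transcripts, and the most abundant of them shape splice-site choice, export and stability of messenger RNA. HNRNPA1, HNRNPA2B1 and HNRNPA3 code for related A/B proteins with paired RNA-recognition motifs, which are known to hold splice sites silent. HNRNPC codes for a uridine-binding protein that packages introns, HNRNPH1 and HNRNPH2 for paralogs that bind runs of G, HNRNPK for a KH-domain protein that binds runs of C, HNRNPM for a protein that binds GU-rich RNA, and HNRNPU and HNRNPUL1 for large scaffold proteins with SAP and SPRY domains. Many hnRNP genes are known to limit their own output through poison exons or retained introns. These 10 genes were chosen by symbol from the 29324 genes with an intron in the deposited splicing table, and all 10 were found there and passed the filter on low counts. They hold 370 of the 213815 splicing events with 20 reads or more in every library.

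The cells were hTERT RPE-1, human retinal pigment epithelial cells kept dividing by added telomerase, whose total RNA was sequenced after removal of ribosomal RNA. Every group carried a hybrid guide RNA (hgRNA), which joins a Cas9 guide to a Cas12a guide, and puromycin (20 µg/ml, 72 h) selected the cells, which then grew for 4 days. The 34 libraries are 17 hgRNA groups, each with 2 replicates that the labels call biological. The controls were 2 hgRNAs that cut at 2 places between genes (4 libraries). The DDX5 group and one FNBP4 group had a deletion inside an intron, and the DDX17, HDAC7 and second FNBP4 groups had a deletion that takes out an exon with a premature stop codon (PTC exon), each with 2 hgRNAs (4 libraries each). The titles call the last 3 intronic deletions too, and the groups follow the treatment labels, which name the PTC exon. HNRNPD had an intronic deletion with 1 hgRNA (2 libraries). In the knockout groups of DDX5, DDX17, FNBP4 and HDAC7 a Cas9 guide cut an exon and the Cas12a guide cut between genes, with 1 hgRNA each (2 libraries each). The labels name no clones and give no editing rate, and in bulk RNA fewer edited cells and a smaller change per cell cannot be told apart. The HDAC7 deletion hgRNAs share a Cas9 guide, as do FNBP4 hgRNAs 2 and 3, and the label of the HDAC7 knockout lists the guide of the FNBP4 knockout. None of the 10 hnRNP genes was itself edited.

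Libraries held 12.4 to 20.2 megareads over spliced junctions. As a check of the labels, DDX5 fell from 548 ± 16.3 CPM (junction counts scaled to a common library size; SD, n = 4) in controls to 391 ± 17.5 (n = 4) in its intronic deletion and to 155 ± 27.2 (n = 2) in its knockout, and DDX17 fell from 419 ± 25.9 (n = 4) to 312 ± 17.6 (n = 2) in its knockout. FNBP4 and HDAC7 were not called lower in the libraries labelled as their knockouts (adjusted p = 0.475 and 0.863). Of the 9 retinal pigment markers looked at, RPE65, BEST1, RLBP1, TYR and TTR had no more than 7 reads in any library. In controls MITF stood at 14.3 CPM, OTX2 at 4.26 CPM, PMEL at 0.444 CPM and SERPINF1 at 0.433 CPM. The mesenchymal genes VIM, COL1A1, THY1 and COL1A2 stood at 7765, 859, 60.2 and 0.876 CPM. The keratins KRT8 and KRT18 stood at 473 and 422 CPM. Of the neuron markers, MAP2 stood at 20.6 CPM and SNAP25 at 1.48 CPM, and SYP had at most 9 reads in any library. The blood marker PTPRC (0.388 CPM) and the endothelial marker PECAM1 (0.267 CPM) were near 0. Some libraries stood apart from their partners. The first replicates of the 4 knockouts had 1.91 to 2.38% of their junction reads on exon-intron boundaries, against 3.76 to 4.48% in their second replicates and 3.66 to 5.9% in the 26 control and deletion libraries. For hgRNA 1 of the controls and of the HDAC7 and DDX17 deletions, the second replicates shared their departures from the first replicates (correlation of the differences over 7771 genes, 0.78 to 0.91).

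The sequences printed here are those of 3 alternative exons and 2 introns described below. For an HNRNPA1 intron, also described below, only the spliced junction is shown and not the intron itself. They come from GENCODE v29 transcripts (GRCh38), 5′ to 3′ on the sense strand. Exon 2 of HNRNPA2B1 (chr7:26197831-26197866, 36 bases, coding) separates the B1 protein, which has it, from the A2 protein. HNRNPM has an alternative coding exon of 54 bases (chr19:8483158-8483211, exon 13 of 16), and HNRNPH1 one of 90 bases (chr5:179616869-179616958, exon 10 of 13). Capitals mark the alternative exon, and the lower-case flanks are coding bases of the neighbouring exons.
HNRNPA2B1, exon 2 included: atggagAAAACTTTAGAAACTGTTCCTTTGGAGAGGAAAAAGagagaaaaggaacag
HNRNPA2B1, exon 2 skipped: atggagagagaaaaggaacag
HNRNPM, 54-base exon included: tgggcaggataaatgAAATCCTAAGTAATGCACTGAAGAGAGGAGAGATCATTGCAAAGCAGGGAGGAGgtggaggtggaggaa
HNRNPH1, 90-base exon included: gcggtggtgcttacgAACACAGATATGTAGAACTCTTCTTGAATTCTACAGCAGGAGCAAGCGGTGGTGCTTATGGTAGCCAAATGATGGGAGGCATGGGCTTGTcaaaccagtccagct

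Of the introns, HNRNPA1 intron 1 (chr12:54280823-54281385, 563 bases) had the largest change, and the coding bases that splicing joins across it are shown with the second exon in capitals. The short HNRNPM intron (chr19:8465363-8465479) and the 92-base HNRNPH1 intron (chr5:179616959-179617050) lie inside longer exons of other annotated transcripts. In those 2 the capitals mark the first 2 and last 2 intron bases. The HNRNPM one is spliced out of a stretch that the transcript HNRNPM-201 keeps as coding exon.
HNRNPA1, intron 1 spliced: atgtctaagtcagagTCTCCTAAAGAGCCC
HNRNPM, short intron: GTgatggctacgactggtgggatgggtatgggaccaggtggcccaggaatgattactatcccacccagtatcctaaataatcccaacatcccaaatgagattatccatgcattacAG
HNRNPH1, 92-base intron: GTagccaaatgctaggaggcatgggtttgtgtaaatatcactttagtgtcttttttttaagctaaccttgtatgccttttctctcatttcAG

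In the authors' deposited table, which gives 1 value per hgRNA with replicates combined, HNRNPA1 led the control column at 547.9 RPKM, a level scaled for depth and transcript length. It was followed in the authors' deposited table by HNRNPC at 374.4, HNRNPH1 at 288.7, HNRNPA2B1 at 273.1, HNRNPK at 265.7, HNRNPU at 182.5, HNRNPUL1 at 175.9, HNRNPA3 at 110 and HNRNPM at 101.3. HNRNPH2 was lowest at 41.85 RPKM in the authors' deposited table. With the exception of HNRNPH2, which was above 81.8% of the 12695 genes over 1 RPKM there, each member was above at least 93.2% of them. That table carries no replicate spread, so whether neighbours such as HNRNPA2B1 and HNRNPK differ cannot be tested from it. HNRNPA1 and HNRNPA3 have many processed pseudogenes and HNRNPH1 and HNRNPH2 are near-identical in part, and the treatment of reads shared between copies is not given in the sources used here, so levels of these 4 genes are uncertain.

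Levels of the hnRNP genes across the 17 groups were measured as spliced-junction CPM with a per-library trend in GC content and length removed. The highest group mean was between 1.31 times (HNRNPH1) and 2-fold (HNRNPH2) the lowest. The coefficient of variation of the 17 group means ran from 7.68% in HNRNPH1 to 17.7% in HNRNPH2, beside a median of 12.7% over the 1991 genes of at least 100 CPM. HNRNPA1, HNRNPM and HNRNPUL1 were above that median (15.2, 13.8 and 16%), and the other members of at least 100 CPM were below it. HNRNPH2, with a median of 6.29 CPM, is not among those genes. For HNRNPA1, HNRNPA2B1, HNRNPA3 and HNRNPH1 the SD of log2 CPM between duplicates was 0.26, 0.22, 0.19 and 0.12. The SD of their group means was lower, at 0.22, 0.14, 0.16 and 0.11. For HNRNPM and HNRNPUL1 the duplicates had the smaller SD (0.098 against 0.19 and 0.12 against 0.21). A group mean averages 2 libraries and so varies less than a single library. The 2 SDs are therefore unlike measures, and a difference between groups cannot be judged from them. CPM counts junctions and is not scaled for length, so it orders groups within a gene and not genes.

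**Figure D1:**
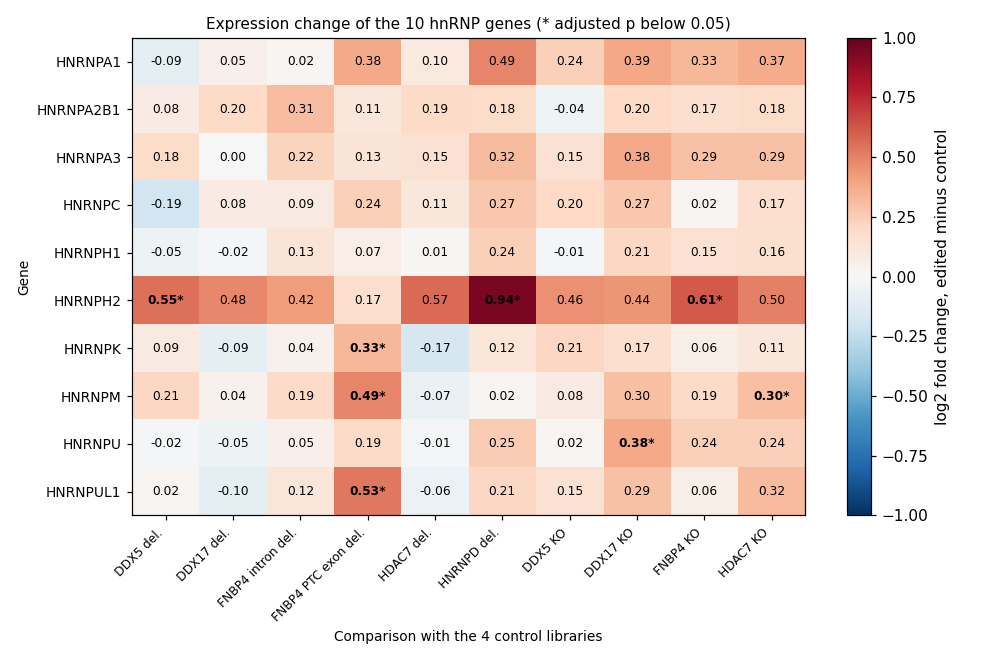
Log2 fold change of each of the 10 hnRNP genes (rows) in each of the 10 comparisons (columns), edited minus control, with the colour scale from -1 to 1 and an asterisk on the 8 pairs past an adjusted p of 0.05. All 8 asterisks stand on positive values, and 3 of them are in the FNBP4 PTC exon deletion.

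No hnRNP gene was called lower in any comparison, and 8 of the 100 pairs of gene and comparison were called higher (limma voom, adjusted p below 0.05 over all 12081 genes). Fold changes were above 0 in 86 of the 100 pairs and the unadjusted p was below 0.05 in 32, beside 54.5% and 26.7% of the 120810 pairs over all genes. All comparisons share the same 4 control libraries, so a control value that is low moves every pair of a gene together. Over all genes the share called higher and lower was 11.5% and 8.67% in the DDX5 deletion, 4.36% and 3.68% in the DDX17 deletion, 2.87% and 2.8% in the FNBP4 intron deletion, 15.5% and 11.9% in the FNBP4 PTC exon deletion, and 2.03% and 1.71% in the HDAC7 deletion. It was 5.32% and 6.72% in the HNRNPD deletion, 12.9% and 4.67% in the DDX5 knockout, 2.49% and 1.82% in the DDX17 knockout, 9.92% and 4.4% in the FNBP4 knockout, and 10.5% and 3.44% in the HDAC7 knockout. The 3 of 10 members called in the FNBP4 PTC exon deletion stand against 15.5%, and the single members called elsewhere are counts too small to set against their background. Without removal of the trend in GC content and length, the share of calls that were higher fell from 57 to 41% in the DDX5 deletion, from 54.3 to 44.2% in the DDX17 deletion, from 50.7 to 36.6% in the FNBP4 intron deletion, from 56.5 to 45.8% in the FNBP4 PTC exon deletion, from 73.4 to 60.7%, 57.8 to 44%, 69.3 to 55.3% and 75.4 to 55.6% in the DDX5, DDX17, FNBP4 and HDAC7 knockouts. It rose from 44.2 to 50.4% in the HNRNPD deletion and was 54.2 and 52.5% in the HDAC7 deletion.

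The FNBP4 PTC exon deletion had the most members called. HNRNPUL1, HNRNPM and HNRNPK rose there, and HNRNPA1, HNRNPC and HNRNPU were higher without passing the threshold. FNBP4 itself, which codes for a formin-binding protein, rose from 39.4 ± 3.43 to 121 ± 19.6 CPM (SD, n = 4 each) in the same libraries. The median log2 fold change was 0.22 over the 10 members and 0.03 over all genes.

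HNRNPUL1 (chr19:41262496-41307598) stood at 493, 438, 446 and 508 CPM in the controls and at 914, 589, 639 and 620 CPM in the FNBP4 PTC exon deletion. All 4 edited libraries were above all controls, and the first replicate of hgRNA 3 was far above the rest. The log2 fold change was 0.53 (SE 0.09, adjusted p = 0.000137), and 0.37 was the lowest value when any 1 library was left out. With the GC and length trend left in it was 0.34 (adjusted p = 0.00804), and the first replicate of hgRNA 3 stood at 726 CPM. HNRNPM (chr19:8444767-8489114) stood at 198, 190, 187 and 212 CPM in controls and at 330, 257, 254 and 269 CPM in the deletion, again with no overlap. Its log2 fold change of 0.49 (SE 0.078, adjusted p = 6.32e-05) was past the threshold under every alternative tried, and was 0.30 with the trend left in (adjusted p = 0.0153). HNRNPK (chr9:83968083-83980616) stood at 883, 769, 840 and 847 CPM in controls against 1192, 1026, 1013 and 977 CPM, with no overlap and a log2 fold change of 0.33 (SE 0.092, adjusted p = 0.00959). The HNRNPK call was lost without control hgRNA 1 replicate 2 or without the first replicate of FNBP4 hgRNA 3, with adjusted p up to 0.0596, and against control hgRNA 2 alone (0.0575). With the trend left in the HNRNPK value was 0.37 (adjusted p = 0.0376).

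HNRNPC was tightly grouped at 301, 309, 303 and 302 CPM in controls and stood at 383, 347, 361 and 349 CPM in the FNBP4 PTC exon deletion, with no overlap but an adjusted p of 0.058 (log2 fold change 0.24, SE 0.095). With the GC and length trend left in, 7 members were called higher there: HNRNPA1, HNRNPC, HNRNPH1, HNRNPK, HNRNPM, HNRNPU and HNRNPUL1, beside 12% of all genes, with a median log2 fold change of 0.33 over the 10. In the authors' deposited table the hgRNA 3 column had an FDR below 0.05 for HNRNPA1 (log2 fold change 0.44, FDR 0.00886), HNRNPC (0.46, 0.0137), HNRNPH2 (0.43, 0.015), HNRNPA3 (0.39, 0.025) and HNRNPU (0.28, 0.0483), and the hgRNA 4 column for none. HNRNPM had log2 fold changes of -0.03 and 0.11 in those 2 columns of the authors' deposited table, so its rise in spliced junctions had no counterpart in the authors' transcript estimate. HNRNPUL1 had 0.22 and 0.25 there (FDR 0.152 and 0.147), and HNRNPK 0.28 and 0.24 (FDR 0.313 and 0.534). The RPKM of HNRNPA3 in the hgRNA 3 column was 90.14, below the 110 of the control column, although its log2 fold change there was above 0. The share of all genes with an FDR below 0.05 in the hgRNA 3 column was not counted. No member had an FDR below 0.05 in the other authors' columns.

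HNRNPH2 (chrX:101408295-101414133), a gene with a single counted intron, was called higher in 3 comparisons. It is the member with the fewest reads, 59 to 172 per library. Its 4 controls stood at 4.5, 4.52, 3.78 and 5.32 CPM. The DDX5 deletion stood at 6.79, 6.44, 6.62 and 6.49 CPM, the HNRNPD deletion at 6.67 and 11.4 CPM and the FNBP4 knockout at 6.76 and 6.94 CPM. All 8 of these libraries were above all controls. The log2 fold changes were 0.55 (SE 0.17, adjusted p = 0.0213), 0.94 (SE 0.19, adjusted p = 0.00253) and 0.61 (SE 0.2, adjusted p = 0.0451). In the DDX17 deletion (6.11 to 6.51 CPM) and HDAC7 deletion (6.18 to 7.27 CPM) all libraries were likewise above the controls, with adjusted p of 0.0859 and 0.0623. The control groups were among the lowest of the 17, control hgRNA 1 being the lowest at 4.51 CPM, and against control hgRNA 1 or control hgRNA 2 alone only the HNRNPD deletion remained called. Without HNRNPD deletion replicate 2 that call was lost as well (log2 fold change 0.57, adjusted p = 0.164). Of the 34 fits without 1 library, 17 lost the FNBP4 knockout call (adjusted p up to 0.204), as did the fit with the trend left in (0.0631), and 6 lost the DDX5 deletion call, those without 3 of the controls or 3 of the edited libraries in turn (up to 0.134). In the authors' deposited table HNRNPH2 was higher in 14 of 15 columns, with an FDR below 0.05 in 1. That column was FNBP4 PTC exon hgRNA 3 (0.43, FDR 0.015), a deletion in which the fit here gave 0.17 (adjusted p = 0.504). In the authors' columns of the 3 called comparisons the FDR was 0.295 and 0.646 (DDX5 deletion), 0.517 (HNRNPD deletion) and 0.41 (FNBP4 knockout).

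HNRNPU rose in the DDX17 knockout, from 497, 488, 463 and 480 CPM in controls to 646 and 606 CPM (log2 fold change 0.38, SE 0.096, adjusted p = 0.0259). HNRNPM rose in the HDAC7 knockout, from the control values above to 235 and 249 CPM (log2 fold change 0.30, SE 0.095, adjusted p = 0.0379). In neither pair did the groups overlap, yet each call was lost on leaving out either edited library, 3 of the 4 controls in turn (highest adjusted p = 0.31 and 0.169), or the trend removal (adjusted p = 0.181 and 0.251).

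**Figure D2:**
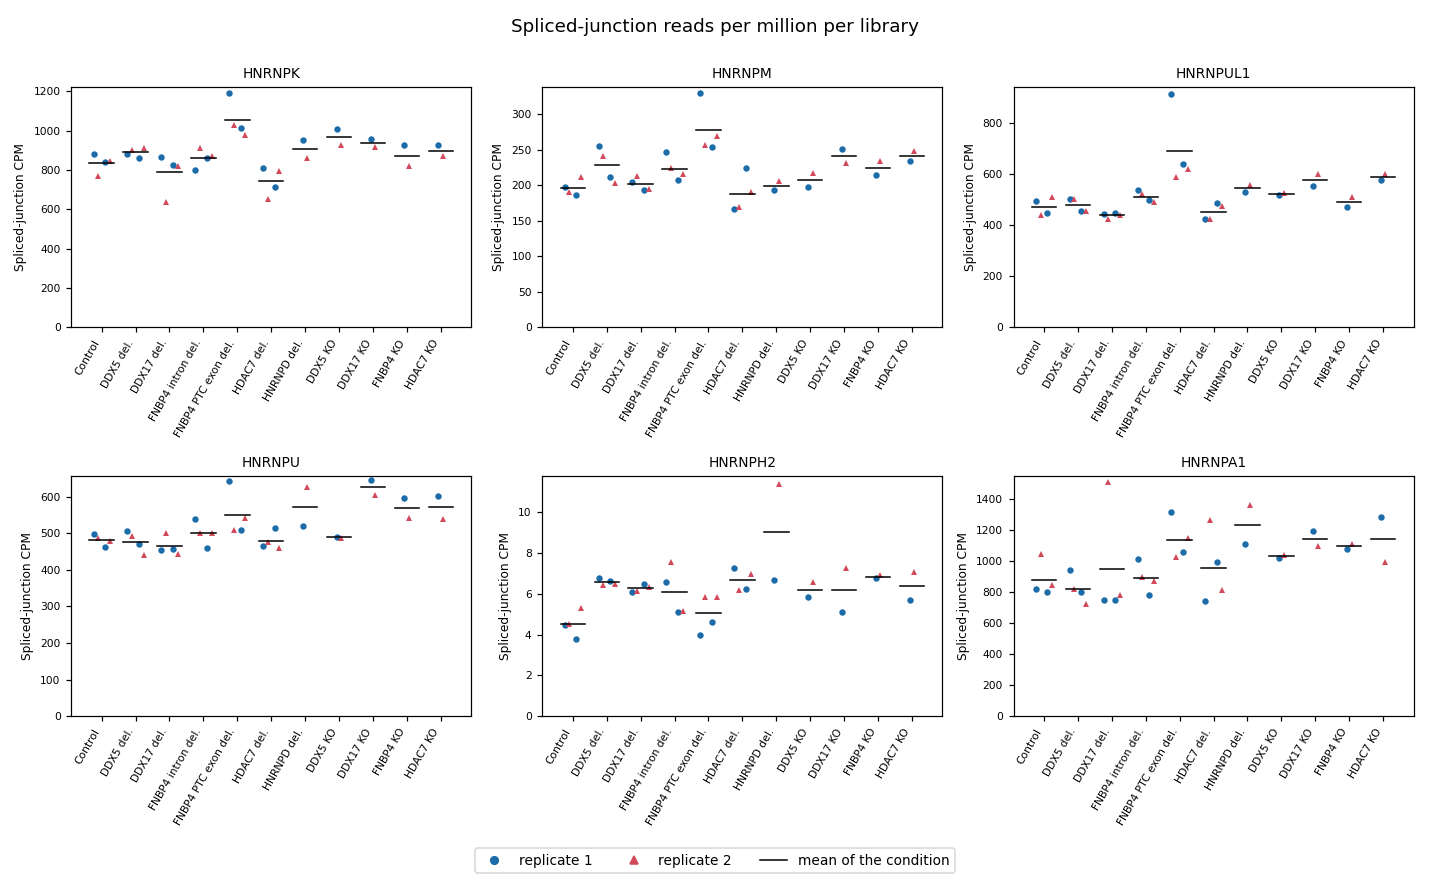
Spliced-junction CPM per library of 6 hnRNP genes by condition, with circles for replicate 1, triangles for replicate 2, side-by-side columns for the hgRNAs of a condition and a line at its mean. HNRNPK, HNRNPM and HNRNPUL1 are highest in the FNBP4 PTC exon deletion, HNRNPH2 is lowest in the controls, and HNRNPA1 has single high triangles at 1508 and 1262 CPM.

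HNRNPA1 and HNRNPA2B1 were not called in any comparison. HNRNPA1 stood at 818, 1046, 802 and 844 CPM in controls and at 1109 and 1358 CPM in the HNRNPD deletion (log2 fold change 0.49, SE 0.2, adjusted p = 0.12). The value of 1046 CPM belongs to the control replicate that stood apart, and the same replicates of the DDX17 and HDAC7 deletions were at 1508 and 1262 CPM. Without those 3 libraries HNRNPA1 was called higher in 5 comparisons: the HNRNPD deletion (0.58, adjusted p = 0.00436), the FNBP4 PTC exon deletion (0.46, 0.00374) and the DDX17, HDAC7 and FNBP4 knockouts (0.48, 0.46 and 0.42, with adjusted p of 0.0378, 0.0183 and 0.0333). This choice was made after the data were seen. It takes out the highest HNRNPA1 control, which all 5 comparisons share, so the 5 calls are not separate results. The share of all genes called in that fit was not counted. HNRNPA2B1 ranged from 634 CPM in DDX5 knockout replicate 1 to 1175 CPM in the DDX17 deletion, with the FNBP4 intron deletion furthest from controls (1114, 976, 829 and 971 CPM, log2 fold change 0.31, adjusted p = 0.218). HNRNPC in the DDX5 deletion was the one member whose 4 edited libraries (281, 272, 253 and 263 CPM) all lay below all controls, with a log2 fold change of -0.19 (SE 0.094, adjusted p = 0.173). In a fit of only those 8 libraries it was called lower (adjusted p = 0.00717). The share of all genes with the same separation or the same call was not counted. With the GC and length trend left in, the HNRNPC log2 fold change over all libraries was -0.12 (adjusted p = 0.404). The authors' deposited table gave -0.03 and -0.05 in its DDX5 deletion columns.

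Over the 17 group means the correlation between 2 members ran from -0.21 (HNRNPA2B1 with HNRNPK) to 0.87 (HNRNPK with HNRNPUL1), with a median of 0.39 over the 45 pairs. HNRNPM was near HNRNPUL1 and HNRNPK (r = 0.85 and 0.77), HNRNPH1 near HNRNPA3, HNRNPU and HNRNPA1 (0.84, 0.82 and 0.80), and HNRNPC near HNRNPA1 (0.78). The members did not fall into separate sets, as HNRNPU was also near HNRNPUL1 and HNRNPM (0.73 and 0.61). HNRNPH2 reached no more than 0.50 with any other member. These values describe 17 groups that share depth and preparation within a library. Among genes of at least 10 CPM, those most like HNRNPK were HMGA1 (r = 0.96), ERF and PRR12 (both 0.95), those most like HNRNPA2B1 were HNRNPA3 (0.68), RNF8 (0.68) and NASP (0.67), and those most like HNRNPH2 were TBCA (0.77), ZCCHC9 and C11orf58 (both 0.72).

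Introns of most hnRNP genes had more reads in the DDX5 intronic deletion. In HNRNPA1, HNRNPA2B1, HNRNPA3, HNRNPC, HNRNPH1, HNRNPK and HNRNPUL1 all 4 deletion libraries had a larger share of exon-intron reads than all 4 controls, and in HNRNPA1 the mean went from 1.67 to 5.21%. These are 7 of the 9 members with 20 such reads in each of the 8 libraries, beside 30.1% of all 4645 such genes. Over whole libraries the share was 4.36 to 5.25% in the DDX5 deletion (median 4.97%) and 4.14 to 5.01% in controls (median 4.36%), highest in the 2 libraries of deletion hgRNA 2. Over the 34 libraries the gene's share went with the library's at r = 0.54 to 0.87 in these genes other than HNRNPC (0.15), and the part of the library's share in the result was not tested. One event of the members, intron 1 of HNRNPA1, was called at the level of single events. DDX5 is an RNA helicase known to act in splicing. Its knockout did not give a larger share in these genes except HNRNPC, and the difference between deletion and knockout was not tested. Over the whole library the share was 2.06% in the first DDX5 knockout replicate and 3.83% in the second, both under the controls. A rise in the knockout could therefore not be judged from its mean. In HNRNPA3, HNRNPC and HNRNPUL1 the share was also above all controls in every library of the DDX17 deletion.

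Exon-intron reads cover the boundary of an exon and its intron, and come from unspliced RNA or from transcripts that read on past an exon's annotated end. In HNRNPC nearly all lie at a single boundary, and in HNRNPM most lie in the stretch that HNRNPM-201 keeps as exon, so in these 2 genes their share is not a measure of unspliced RNA. In HNRNPA1 the share was 1.89, 1.56, 1.63 and 1.6% in controls and 4.83, 4.78, 5.63 and 5.59% in the DDX5 deletion. In HNRNPA2B1 it was 3.06, 2.91, 2.42 and 2.57% against 4.64, 4.43, 6.6 and 6.02%. In HNRNPH1 it was 11.9, 11.1, 9.99 and 11.3% against 16.2, 14.5, 19.1 and 18.6%. The second hgRNA was above the first in all 3 genes.

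In HNRNPA3 the share was 3.19 to 3.7% in controls and 4.26 to 6.2% in the DDX5 deletion, in HNRNPK 0.914 to 1.49% and 1.66 to 2.14%, and in HNRNPC 7.18 to 8.66% and 9.52 to 9.92%. HNRNPU overlapped the controls in 1 library (1.48 to 2.39% against 1.33 to 1.74%), and HNRNPM overlapped them widely (12.1 to 14.7% against 10.8 to 13%). HNRNPUL1, at 0.451 to 0.693% in controls and 0.85 to 1.36% in the deletion, had too few exon-intron reads for the test, as had HNRNPH2 with at most 2. In the DDX17 deletion the share was 3.96 to 4.63% in HNRNPA3, 8.82 to 13.6% in HNRNPC and 0.714 to 0.963% in HNRNPUL1. HNRNPC was also above all controls in every library of the FNBP4 intron deletion (8.71 to 9.41%) and of the DDX5, FNBP4 and HDAC7 knockouts. The share of all genes with such separation in those comparisons was not counted.

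In the fit over all 34 libraries no member passed the threshold in any of the 10 comparisons, in any of 80 pairs of gene and comparison. In the DDX5 deletion the log2 ratio was 1.69 (SE 0.61, adjusted p = 0.15) for HNRNPA1 and 1.01 (SE 0.45, adjusted p = 0.247) for HNRNPA2B1, with a median of 0.66 over the 8 members tested and 0.18 over 1691 genes, and 2 members had an unadjusted p below 0.05. Of all tested genes 1.54% were called in the DDX5 deletion, 0.0591% each in the DDX17, FNBP4 intron and HDAC7 deletions and the DDX5 and DDX17 knockouts, 0.177% in the FNBP4 PTC exon deletion, 0% in the HNRNPD deletion, and 0.651% and 0.473% in the FNBP4 and HDAC7 knockouts. The SE in this fit is shared with the knockouts, whose duplicates lay far apart in 6 of the 8 members tested, HNRNPC and HNRNPM being the exceptions.

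Without the first replicate of each knockout, a choice made after the data were seen, 7 of 9 members were called higher in the DDX5 deletion, beside 31.2% of the 3291 genes then tested. These were HNRNPA1 (log2 ratio 1.69, SE 0.15, adjusted p = 4.03e-07), HNRNPA2B1 (1.01, SE 0.18, adjusted p = 0.000328), HNRNPUL1 (0.96), HNRNPH1 (0.72), HNRNPK (0.70), HNRNPA3 (0.62) and HNRNPU (0.43). HNRNPC (0.33, adjusted p = 0.0996) and HNRNPM (0.14, adjusted p = 0.548) were not called. The median was 0.70 over the 9 members and 0.29 over all 3291 genes. In the same fit HNRNPUL1, HNRNPA1 and HNRNPA3 were lower in the FNBP4 PTC exon deletion (-0.82, -0.61 and -0.56, adjusted p = 0.0384, 0.0197 and 0.0412), beside 4.98% of genes. HNRNPA1 was higher in the 1 FNBP4 knockout library left (1.17, adjusted p = 0.0113, beside 0.638%), which is assumed to vary as the other groups do.

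**Figure D3:**
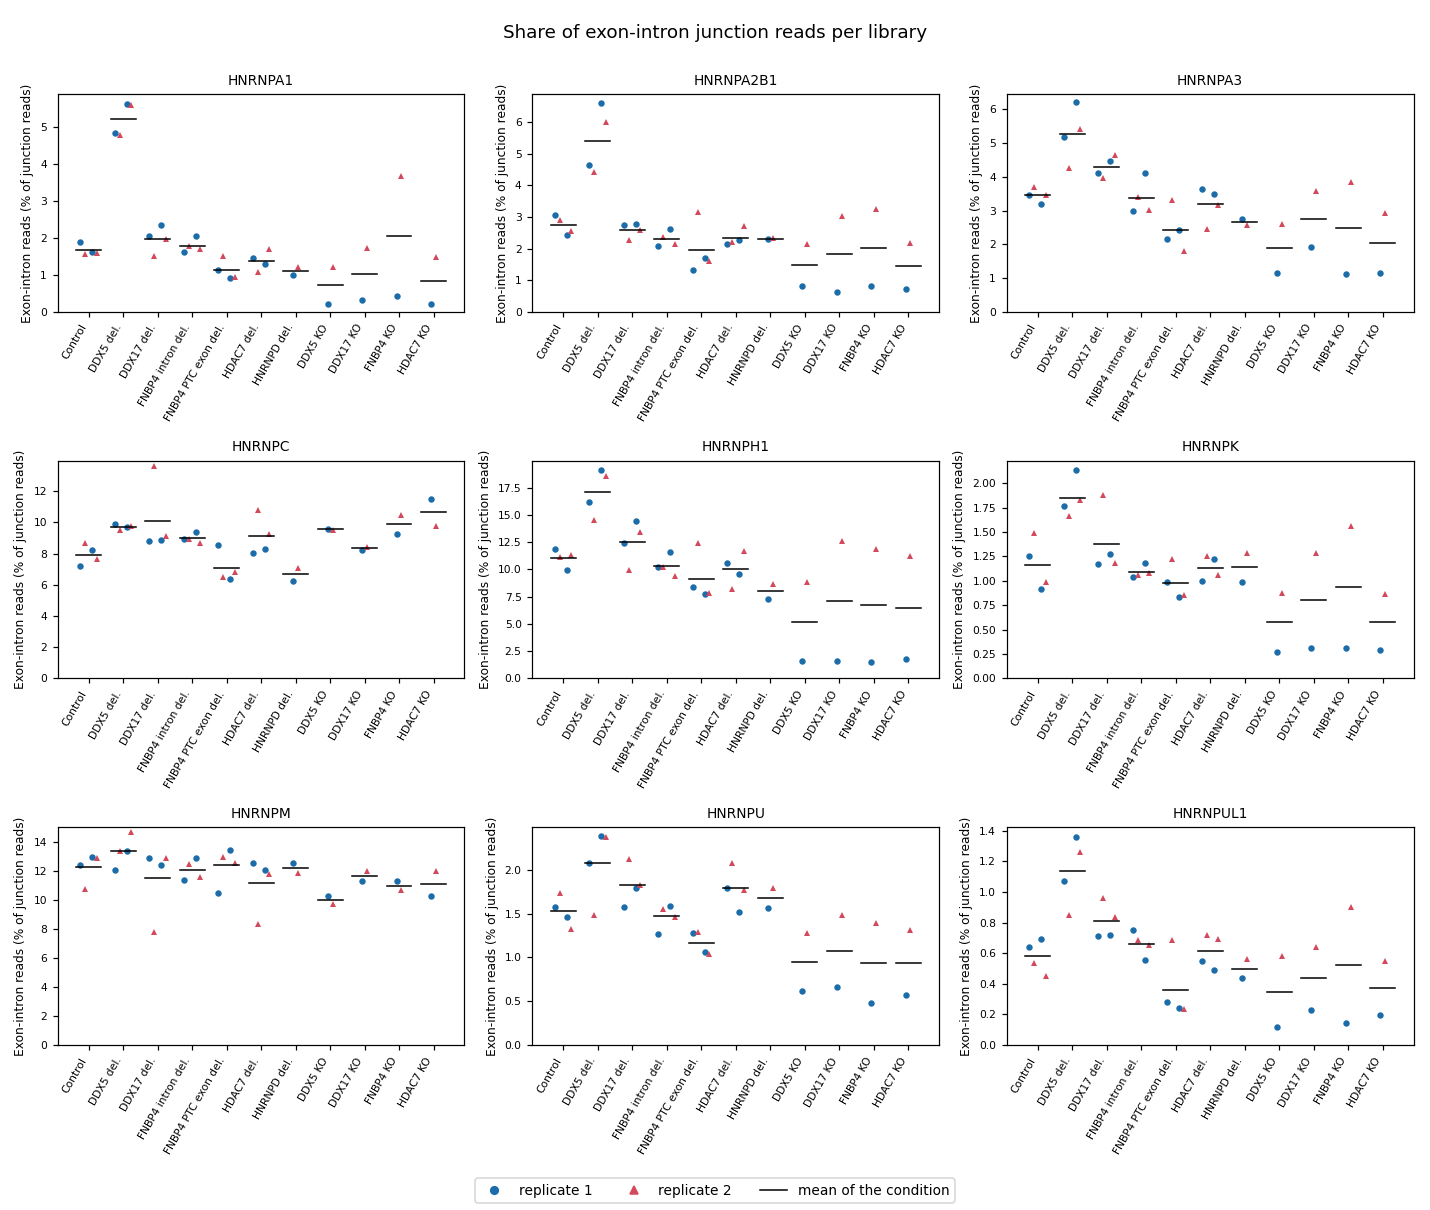
Share of exon-intron reads among the junction reads of 9 hnRNP genes per library and condition, with circles for replicate 1, triangles for replicate 2 and a line at the mean of a condition. The DDX5 deletion stands highest in HNRNPA1 at 4.78 to 5.63%, and in most panels the knockout circles lie far below the knockout triangles.

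The first knockout replicates differed from the second more in some hnRNP genes than in others. HNRNPH1 had 1.52 to 1.77% exon-intron reads in the 4 first replicates, 8.84 to 12.6% in the 4 second replicates and at least 7.31% in every control and deletion library. HNRNPA1 had 0.211 to 0.427% and 1.21 to 3.68%, HNRNPK 0.275 to 0.311% and 0.865 to 1.56%, and HNRNPA2B1 0.612 to 0.818% and 2.15 to 3.25%. HNRNPC (8.24 to 11.5% and 8.45 to 10.5%) and HNRNPM (10.3 to 11.3% and 9.76 to 12%) overlapped. In these last 2 genes a single site gave most such reads, intron 3 of HNRNPC and the short HNRNPM intron. The part of RNA quality or preparation in this split was not tested.

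Across the 99 tested introns of the members, 39 (39.4%) had all 4 DDX5 deletion libraries above all 4 controls, beside 9.69% of all 52510 tested introns. Of these, HNRNPA2B1 gave 10 of its 11 introns, HNRNPA1 8 of 9, HNRNPH1 7 of 11 and HNRNPK 5 of 16. HNRNPUL1 gave 0 of 12. Introns of a gene share its transcripts and are not independent.

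HNRNPA1 intron 1 was retained at 4.08, 2.77, 2.72 and 4.49% in controls and at 24.4, 17, 20 and 22.3% in the DDX5 deletion. The groups lay far apart, with a difference of 17.4 points (log2 ratio 2.79, SE 0.64, adjusted p = 0.0244), the only member event called in any comparison. Outside the DDX5 deletion the highest libraries were FNBP4 knockout replicate 2 at 18.7%, whose partner stood at 3.15%, and the first replicate of FNBP4 intron deletion hgRNA 2 at 13.7%, whose partner stood at 4%. The DDX5 knockout gave 0 and 6.16%. The call held in 28 of the 34 fits without 1 library and in a fit of only the 8 libraries compared (adjusted p = 0.000174). It was lost without each of the 4 deletion libraries or 2 of the controls in turn (adjusted p up to 0.156), with a pseudocount of 0.5 (0.0679), and without the 3 second replicates that stood apart (0.114). Without the first knockout replicates its adjusted p was 0.000294. Its exon-intron reads over all libraries were uneven, 156 at the 5′ end and 600 at the 3′ end. The percentages rest on 217, 575, 359 and 221 reads for the event in controls and on 176, 172, 153 and 162 in the DDX5 deletion.

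Other introns moved less in the same libraries. HNRNPA1 intron chr12:54282666-54282799 went from 1.63 to 8.1%, a difference of 6.5 points under the limit of 10 (adjusted p = 0.0396). HNRNPA3 intron 7 (chr2:177216941-177217704) stood at 2.22, 7.41, 1.82 and 3.6% in controls and 9.27, 11, 17.5 and 18.2% in the deletion (10.2 points, adjusted p = 0.101, and 0.0203 in a fit of only those 8 libraries), and the HNRNPA2B1 intron at chr7:26193695-26195846 at 8.94, 8.46, 8.78 and 6.25% against 14.9, 12.1, 22.2 and 20% (adjusted p = 0.0803). HNRNPH1 intron 10 (chr5:179616219-179616868), which follows the 90-base exon printed above, went from 19.7 ± 1.98 to 30.7% on average (adjusted p = 0.604). Reads at the 5′ and 3′ ends over all libraries were 1153 and 242 in the second HNRNPA1 intron, 268 and 114 in the HNRNPA3 intron, 1497 and 207 in the HNRNPA2B1 intron and 283 and 545 in the HNRNPH1 intron, so retention of the whole intron was not measured evenly in them. Over all events 0.036% were called in the DDX5 deletion, 0.00281% in the DDX17, 0.00234% in the FNBP4 intron, 0.0337% in the FNBP4 PTC exon, 0% in the HDAC7 and 0.00234% in the HNRNPD deletions, and 0.00795%, 0.0164%, 0.0224% and 0.0168% in the DDX5, DDX17, FNBP4 and HDAC7 knockouts.

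**Figure D4:**
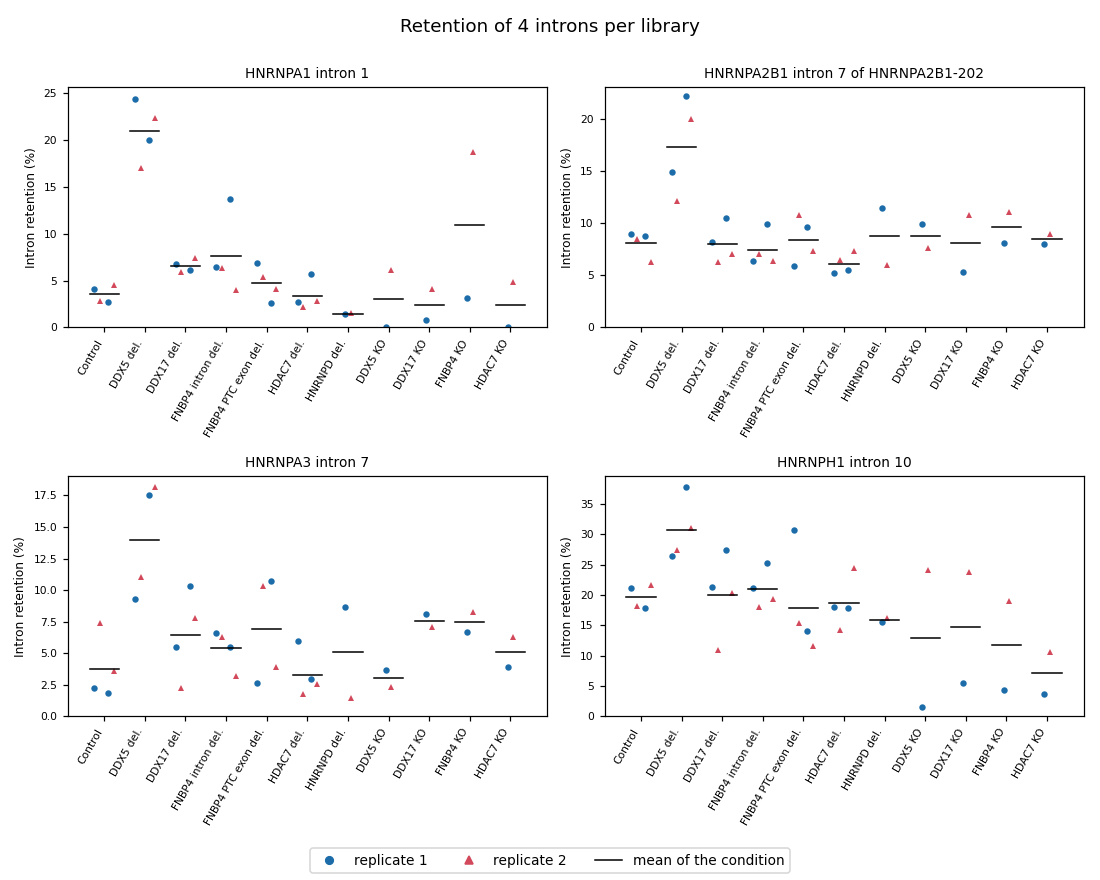
Retention in percent of 4 hnRNP introns per library and condition, with circles for replicate 1, triangles for replicate 2 and a line at the mean. HNRNPA1 intron 1 reaches 24.4% in the DDX5 deletion against at most 4.49% in controls, and HNRNPH1 intron 10 is at 1.59 to 5.49% in the first knockout replicates.

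Alternative exons and splice sites of the members were not called in any comparison over all 34 libraries. Without the 3 second replicates that stood apart, an HNRNPM exon of 53 bases (chr19:8462529-8462581) was called in the DDX5 and the FNBP4 PTC exon deletions (10.4 points each, adjusted p = 0.0377 and 0.0178). Its inclusion was 87, 100, 100 and 84.5% in controls and 100% in all 8 deletion libraries, and over all 34 libraries the adjusted p was 0.265 and 0.17. It was 100% in the other edited libraries too, except in the HDAC7 deletion (79.1, 100, 100 and 84.5%). Over all libraries the difference was 7.1 points in every comparison but that one. The difference therefore rests on the controls at 87 and 84.5%, and the control left out of the called fit was at 100%. Exon 2 of HNRNPA2B1, which sets the A2 and B1 forms, was included in 12.6 ± 0.531% of 2052 to 2377 junction reads per library in controls (SD, n = 4) and in 9.32 to 16.5% over all 34 libraries. The FNBP4 knockout was at 14.9 and 16.5%, above all controls (adjusted p = 0.378). The exon near the 3′ end of HNRNPA2B1 (chr7:26190993-26191128, 136 bases, an exon of no protein-coding transcript, inside the long last exon of others) was included at 73.3, 68.4, 68.6 and 72.2% in controls and at 50.2 and 53.7% in the FNBP4 knockout. That is 18.7 points lower without overlap, but the adjusted p was 0.0736 over all libraries and 0.034 in a fit of only the 6 libraries compared. The first replicates of the other knockouts were low as well, at 58.1, 55.3 and 55.7%, and their second replicates were at 67.6, 69.7 and 71.3%.

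The 54-base exon of HNRNPM was the most balanced, at 45.6, 42.8, 58 and 50.3% in controls and 40.3 to 69.5% over all libraries, with 35 to 142 reads each. Duplicates could lie far apart, as the 69.5 and 40.9% of FNBP4 PTC exon hgRNA 3 show. The 90-base exon of HNRNPH1 was at 74.6 ± 2.65% in controls and between 56.4 and 84.8% elsewhere. The short HNRNPM intron was retained at 60, 50.7, 59.6 and 60.5% in controls and at 46.8 and 44.4% in the DDX5 knockout, both below all controls (-12.1 points, adjusted p = 0.0179 in a fit of only those 6 libraries, not called over all 34). Without the 3 second replicates that stood apart, 1 of them a control, it was called (-14.4 points, adjusted p = 0.000574). It was lowest, at 38 and 43.9%, in the DDX17 and HDAC7 deletion replicates that stood apart. The 92-base HNRNPH1 intron was retained in 16.7 ± 3.9% in controls.

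**Figure D5:**
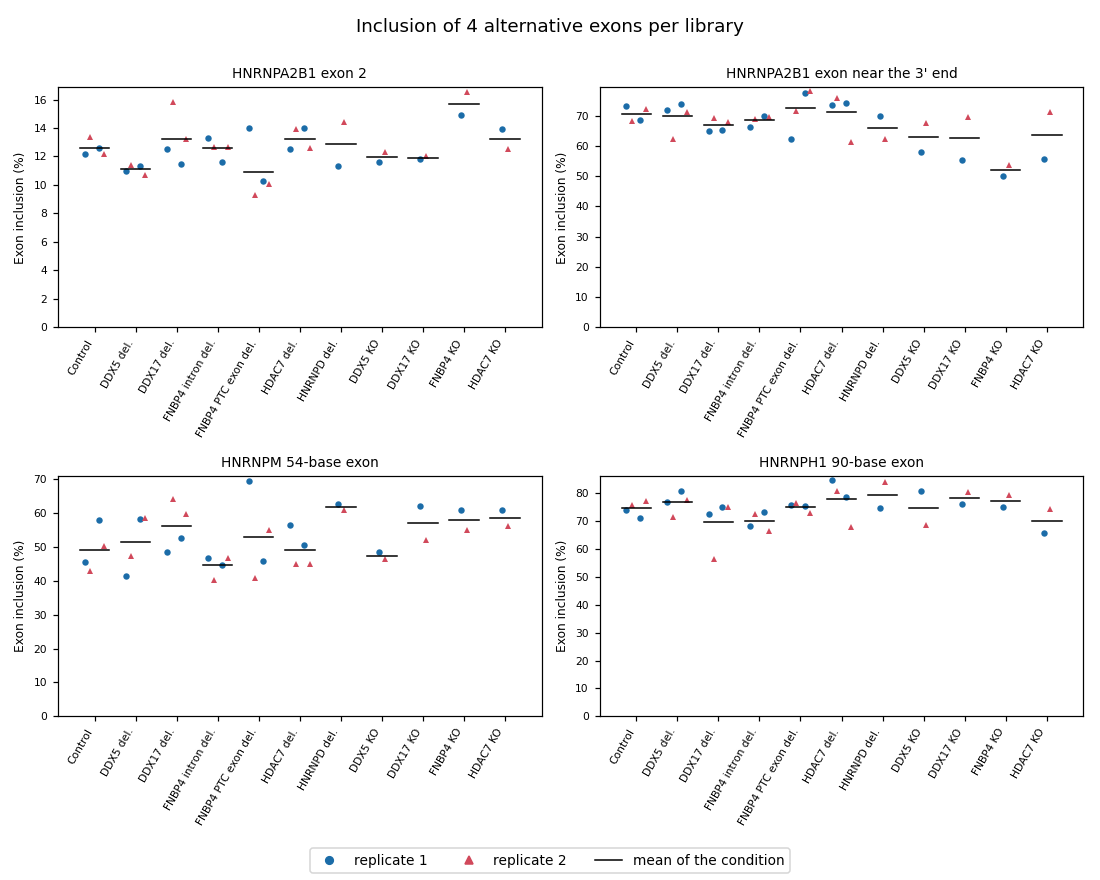
Inclusion in percent of 4 alternative exons of hnRNP genes per library and condition, with circles for replicate 1, triangles for replicate 2 and a line at the mean. HNRNPA2B1 exon 2 stays between 9.32 and 16.5%, and the HNRNPA2B1 exon near the 3′ end is at 50.2 and 53.7% in the FNBP4 knockout.

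Remaining members had few alternative events. HNRNPK used an alternative 5′ UTR donor site in 58.6 ± 4.17% of reads in controls, and its first intron (chr9:83978453-83980152) was retained in 27.8 ± 3.24%, with 54.4 and 44.8% in FNBP4 PTC exon hgRNA 3 but 20 and 24% in hgRNA 4. Retention was 35.6 ± 5.45% for intron 1 of HNRNPU and 21.9 ± 1.38% for intron 3 of HNRNPC. Over all libraries the reads of those 2 introns were uneven between their ends, 1627 at the 5′ end and 125 at the 3′ end in HNRNPU and 17453 and 31 in HNRNPC, so these values do not measure retention of the whole intron either. HNRNPUL1 had no event between 5 and 95% in controls among the 15 exons and 12 introns tested, nor among its splice sites. For HNRNPA1 and HNRNPA3 none of the 3 and 1 exon events in the table, nor any alternative splice site, had 20 reads in every library, and only introns were tested.

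Other genes of the hnRNP family and its partners changed in both directions. Of 20 other hnRNP genes 16 were tested, and at most 2 were called higher and at most 2 lower in a comparison. HNRNPF, a paralog of HNRNPH1, fell in 5 comparisons, furthest in the DDX17 deletion (46.4 ± 3.71 to 34.1 ± 3.32 CPM, adjusted p = 0.00331), and also in the DDX5, FNBP4 intron and HDAC7 deletions and the DDX5 knockout (adjusted p = 0.00714, 0.0254, 0.0144 and 0.0444). Of 10 genes for transport and modification of hnRNP proteins 8 were tested, and 4 were called higher in the FNBP4 and in the HDAC7 knockout with medians of 0.34 and 0.33 (all genes 0.06 and 0.07). They were KPNB1, PRMT1, ALYREF and TNPO1, which codes for the import receptor of HNRNPA1. TNPO1 stood at 288 CPM in controls, rose to 390 and 378 in those 2 knockouts and fell to 204 in the FNBP4 PTC exon deletion and 199 in the HNRNPD deletion (adjusted p = 3.19e-05 and 0.000471). Without the trend removal HNRNPF lost its calls in the DDX5 knockout and the FNBP4 intron deletion (0.0664 and 0.0533), and TNPO1 its calls in the FNBP4 PTC exon deletion and the HDAC7 knockout (0.0605 and 0.12). Of 10 genes with exons known as hnRNP targets, all tested, at most 4 were called higher and at most 4 lower in a comparison. BCL2L1, which codes for forms that block or promote cell death, rose in 7 comparisons, furthest in the DDX5 knockout (68.1 to 137 CPM, adjusted p = 1.02e-05). BCL2L1 fell in the HNRNPD deletion (44.1 CPM on average, adjusted p = 0.0026) and in the deletion of the FNBP4 PTC exon (54 CPM, adjusted p = 0.0209).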

How the data were processed

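The authors deposited a splicing table that gives each event's percent inclusion (retention for introns) in each library, beside its junction reads, and an expression table with RPKM, log2 fold changes and p-values (FDR) per hgRNA, replicates combined. Salmon 1.10 and edgeR are named in the submitters' processing notes without their role, and the aligner is not given in the sources used here. Intron positions in the deposited splicing table matched GENCODE 29 on GRCh38 for 99.98% of introns.

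The files hold no gene counts, so reads over spliced junctions of a gene's introns were summed per gene. Genes with 10 reads at the median depth in 2 libraries and 15 in total were tested with limma 3.58.1 (voom, TMM factors, R 4.3.3) in 1 fit of 17 hgRNA groups, after a spline trend of GC content and length was removed per library. Each comparison is the mean of its hgRNA groups minus that of the 2 control groups. Events needed 20 reads in every library and were tested with limma as log2 ratios of inclusion to exclusion reads plus 1, called past an adjusted p of 0.05 and 10 points. Exon-intron over exon-exon reads per gene were tested likewise with 20 exon-intron reads in every library. P-values were adjusted by Benjamini-Hochberg over all features of a comparison. Counts of reads without molecular identifiers are not independent molecules. Columns of 2 libraries without a sample in the labels were not used.

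The 10 genes and all lists were chosen with earlier results of these data known. All 10 genes are named. Of each gene's events, those called, those nearest 50% and the introns most retained in controls were named. The other DDX5 deletion introns described were picked after their values were seen. Scripts were tested on simulated data.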

Additional observations from a re-analysis of the deposited data

Results flagged for a closer look

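In 60 sets of 4 libraries (10 genes in the controls and the 5 deletions with 2 hgRNAs), 3 held a library far from the other 3, where chance gives about 5%. HNRNPA1 stood at 1508 CPM in the second replicate of DDX17 deletion hgRNA 1, against 746 to 780 CPM in the other libraries of that deletion. HNRNPA2B1 stood at 1175 CPM in the same library, against 802 to 827 CPM. That library is one of the 3 second replicates that stood apart from their partners. HNRNPUL1 stood at 914 CPM in the first replicate of FNBP4 PTC exon hgRNA 3, against 589 to 639 CPM, and stayed called without it, with a log2 fold change no lower than 0.37 on leaving out any library. With the GC and length trend left in, that library stood at 726 CPM, against 580 to 608 CPM.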

How the results depend on the processing

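HNRNPM and HNRNPUL1 in the FNBP4 PTC exon deletion kept direction and call under all 11 other settings and all 34 fits without 1 library; none of the 8 gene calls changed sign under any. The number of calls was 8, and 14 with only a comparison's own libraries, 4 against control hgRNA 1 alone, 3 against control hgRNA 2 alone, and 3 to 16 without 1 library (3 without control hgRNA 1 replicate 2, 16 without FNBP4 PTC exon hgRNA 3 replicate 2). Event calls went from 1 to 0 with a pseudocount of 0.5, to 14 with no size limit, 2 with a limit of 5 points, 3 without the 3 second replicates that stood apart, 4 with own libraries, and 0 to 1 without 1 library. Calls of intron read share went from 0 to 11 without the first knockout replicates and 0 to 5 without 1 library. The causes were not tested. Leaving out the 3 second replicates or the first knockout replicates was chosen after seeing the data. With the replicate number as a block there were 12 gene calls, 1 event call and 0 intron share calls; the 4 added gene calls were HNRNPH2 in the DDX17 and HDAC7 deletions (adjusted p = 0.0498 and 0.0349), HNRNPC in the FNBP4 PTC exon deletion (0.048) and HNRNPUL1 in the HDAC7 knockout (0.0497). Same-numbered samples deviated together within the knockouts (correlation 0.67 to 0.83) and within hgRNA 1 of the controls and of the DDX17 and HDAC7 deletions (0.78 to 0.91), but over 0.1 in only 42 of all 136 pairs of groups, so the numbers were not taken to pair samples across the study. HNRNPH2 rests on 59 to 172 reads per library, which limits its precision.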
